A study of Mus musculus with 12 samples.

Results

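Prrx1, Prrx2, Twist1, Twist2, Alx1 and Alx4 are 6 genes for transcription factors of the limb bud mesenchyme. Their loci were read from 12 lists of peaks from chromatin immunoprecipitation sequencing (ChIP-seq) of mouse forelimb buds, and a peak summit was assigned to a gene when it lay within 200 kb of the gene body on the mouse build mm10. By this distance alone, 888 of the 268431 summits in the 12 lists fell into the 6 loci, and 82 of them were β-catenin summits of the wild-type consensus list, which holds 16238 in all. Wild-type Swiss Albino embryos were exposed at E10.5, through an injection of the pregnant female, either to DMSO in PBS (the wild-type control) or to C59. The C59 was diluted in a different vehicle that also held DMSO, so the treatments were not matched for vehicle. C59 inhibits porcupine, the enzyme that WNT ligands need for their secretion, and the buds were dissected 6 h later. β-Catenin and histone H3 acetylated at lysine 27 (H3K27ac) were each mapped in 2 libraries per treatment, every library from pooled forelimb buds, so that single embryos and cell types cannot be told apart. A consensus list joins the summits that the authors called on both replicates together and that lay in a peak of each replicate.

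The canonical WNT pathway stabilises β-catenin, which enters the nucleus and binds to DNA through the TCF and LEF factors. H3K27ac marks active promoters and enhancers. Prrx1 and Prrx2 encode paired-type homeodomain proteins expressed in early limb mesenchyme, and together they are required for normal limb skeletons. Twist1 and Twist2 encode basic helix-loop-helix proteins that maintain mesenchymal cells, and Twist1 is needed for limb bud outgrowth. Alx1 and Alx4 encode aristaless-like homeodomain proteins that act in craniofacial mesenchyme, and Alx4 also limits polarising activity to the posterior limb bud.

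The 10 windows below were chosen because the results turn on them. They are 200 bp of the reference genome (GRCm38.p6, RefSeq) centred on wild-type β-catenin summits, written 5′ to 3′ on the plus strand, and may differ from the Swiss Albino sequence. Capitals mark the TCF/LEF core, ATCAAAG or TTCAAAG, on either strand, where a core on the minus strand reads CTTTGAT or CTTTGAA.
Prrx1, strongest summit, 148 kb upstream, chr1:163461366-163461565, plus strand: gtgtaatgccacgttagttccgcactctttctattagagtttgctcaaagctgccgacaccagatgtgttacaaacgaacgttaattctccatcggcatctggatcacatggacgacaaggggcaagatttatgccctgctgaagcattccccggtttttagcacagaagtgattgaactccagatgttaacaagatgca
Prrx1, strongest summit with a core, 60.9 kb upstream, chr1:163374549-163374748, plus strand: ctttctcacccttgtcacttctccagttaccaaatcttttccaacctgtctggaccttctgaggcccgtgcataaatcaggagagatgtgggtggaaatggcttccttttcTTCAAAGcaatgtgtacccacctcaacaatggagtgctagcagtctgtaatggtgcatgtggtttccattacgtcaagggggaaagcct
Prrx1, summit with a core 1217 bp from its start site, chr1:163314827-163315026, plus strand: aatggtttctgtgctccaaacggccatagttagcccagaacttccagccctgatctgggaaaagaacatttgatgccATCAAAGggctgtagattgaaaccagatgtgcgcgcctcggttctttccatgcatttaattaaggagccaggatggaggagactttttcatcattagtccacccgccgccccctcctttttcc
Prrx2, strongest summit, 50.2 kb upstream, chr2:30784692-30784891, plus strand: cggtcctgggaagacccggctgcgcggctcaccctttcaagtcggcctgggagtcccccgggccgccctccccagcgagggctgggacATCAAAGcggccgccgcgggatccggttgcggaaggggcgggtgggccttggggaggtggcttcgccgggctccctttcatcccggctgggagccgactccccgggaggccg
Twist1, strongest summit with a core outside untranslated regions, in an intron of Hdac9, chr12:34133616-34133815, plus strand: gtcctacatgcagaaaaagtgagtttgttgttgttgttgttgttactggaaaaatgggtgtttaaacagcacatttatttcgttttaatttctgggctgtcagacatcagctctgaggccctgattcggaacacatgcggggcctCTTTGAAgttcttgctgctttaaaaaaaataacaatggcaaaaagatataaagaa
Twist2, strongest summit, 116 kb upstream, chr1:91685815-91686014, plus strand: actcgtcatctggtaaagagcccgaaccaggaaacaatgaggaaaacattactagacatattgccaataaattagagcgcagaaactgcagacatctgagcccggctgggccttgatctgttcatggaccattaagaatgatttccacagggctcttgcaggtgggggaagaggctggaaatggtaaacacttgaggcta
Twist2, summit beside an H3K27ac region that was lower after C59, 46.1 kb upstream, chr1:91755217-91755416, plus strand: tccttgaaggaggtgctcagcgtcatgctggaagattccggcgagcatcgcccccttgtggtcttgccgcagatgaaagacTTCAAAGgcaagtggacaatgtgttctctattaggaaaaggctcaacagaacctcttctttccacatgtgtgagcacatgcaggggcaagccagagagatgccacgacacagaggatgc
Twist2, strongest summit with a core, 1067 bp from its start site, chr1:91800294-91800493, plus strand: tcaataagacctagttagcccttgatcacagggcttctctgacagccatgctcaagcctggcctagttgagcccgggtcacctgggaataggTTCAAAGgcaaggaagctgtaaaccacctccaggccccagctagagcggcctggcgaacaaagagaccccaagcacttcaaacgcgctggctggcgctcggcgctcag
Alx1, strongest summit, 37.5 kb downstream of its start, chr10:102992629-102992828, plus strand: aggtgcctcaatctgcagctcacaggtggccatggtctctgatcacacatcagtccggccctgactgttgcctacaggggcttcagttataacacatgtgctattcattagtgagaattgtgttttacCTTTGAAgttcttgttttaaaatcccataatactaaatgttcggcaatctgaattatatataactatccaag
Alx4, strongest summit, in an intron of Ext2, chr2:93746197-93746396, plus strand: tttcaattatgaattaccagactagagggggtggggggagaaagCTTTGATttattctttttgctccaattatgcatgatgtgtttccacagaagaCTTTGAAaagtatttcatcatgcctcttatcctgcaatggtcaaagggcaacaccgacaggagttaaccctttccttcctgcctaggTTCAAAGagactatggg
The strongest summits of Prrx1 and Twist2 hold no core in these letters, whereas that of Alx4 holds 3 and those of Prrx2 and Alx1 hold 1 each. The H3K27ac region beside the Twist2 summit 46.1 kb upstream was picked for its low value after C59 and did not pass the test described below.

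Depth was somewhat higher in the C59 libraries of both targets. By the background coverage solved from the deposited fold enrichments and p-values, it ranged from 2.93 to 3.39 Gb of fragments in the DMSO libraries of β-catenin and from 3.40 to 3.42 Gb in the C59 ones. For H3K27ac the ranges were 5.03 to 5.39 Gb and 5.56 to 5.93 Gb. The labelled tissue was checked by H3K27ac at promoters. Tbx5, which specifies forelimb identity, had a summit within 1 kb of a TSS in all 4 H3K27ac lists, and of the hindlimb genes Pitx1 had 0 summits there and Tbx4 had 1 or 2. All 14 other mesenchyme factors examined had such a summit in each list, against 1 or 2 of 5 ectoderm genes, 2 or 3 of 3 muscle precursor genes, 1 or 2 of 4 endothelial genes and 1 or 2 of 4 blood genes. Among the defining markers, Trp63, Krt14, Krt5, Kdr, Gata1 and Klf1 had 0 in every H3K27ac list, whereas Epcam of the ectoderm and Tal1 of the blood list had at least 1 in all 4 and Cdh1 and Cdh5 in 3 of 4. Pecam1 and Spi1 had 1 in both C59 lists and 0 in both DMSO lists, and the part of other cell types in the results was not tested.

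β-Catenin occupied every one of the 6 loci in wild-type forelimb buds, and after C59 almost no summit was listed. Prrx1 had 25 consensus summits, Alx4 had 15, Twist2 had 14, Twist1 had 12, Prrx2 had 11 and Alx1 had 5. The C59 consensus list held 0 summits in all 6 loci together. In the single libraries, 89 and 105 summits fell into the loci under DMSO, against 1 and 0 with C59.

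At Prrx1, the DMSO libraries listed 25 and 27 summits and the C59 libraries 1 and 0. At Prrx2, they listed 11 and 21 against 0 and 0. At Twist1, 15 and 14 were listed in the DMSO libraries and 0 and 0 after C59. The treatments were separated widely at these 3 genes, although the wild-type libraries of Prrx2 differed by almost as much as one of them held. Twist2 had 17 and 17 summits against 0 and 0. Alx1 had 6 and 4 against 0 and 0. Alx4 had 15 and 22 against 0 and 0. Both wild-type libraries were therefore above both C59 libraries at 6 of 6 genes. The same held for 79.6% of the 21938 protein-coding genes in the annotation, so the separation is common to most genes and not a result about these 6. An exact two-sided permutation test of the summed counts gave p = 0.333, the smallest value that 2 against 2 libraries allow.

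**Figure D1:**
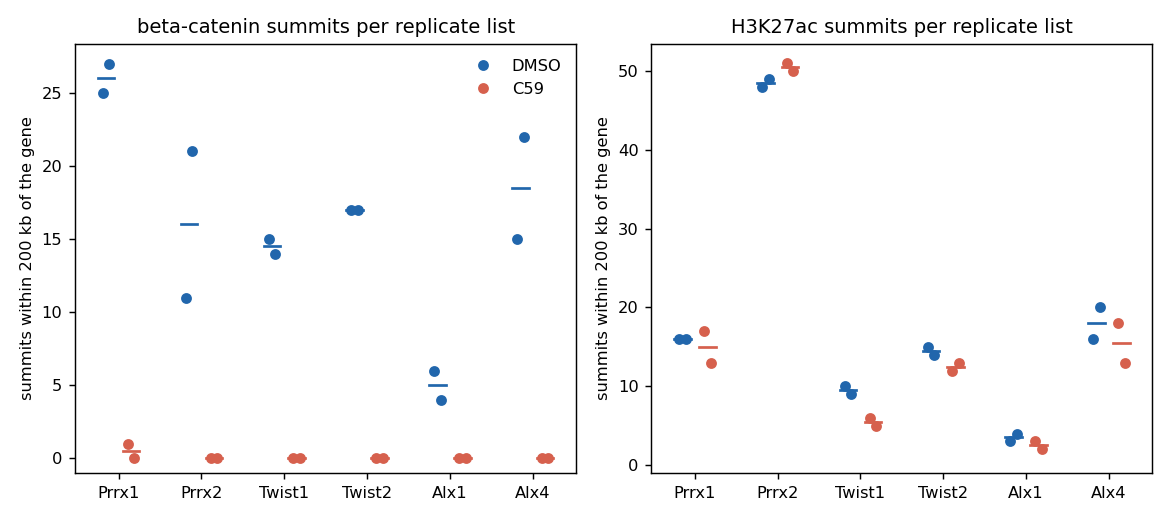
Number of summits within 200 kb of each gene (y axis) in each replicate list, for β-catenin (left) and H3K27ac (right), where points are the 2 libraries of each treatment and short lines their means. The β-catenin counts fell to 0 or 1 after C59 at each gene, whereas H3K27ac summits were listed at each gene in both treatments, with Twist1 at 10 and 9 against 6 and 5.

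The calling limit was stricter in the C59 lists. Their lowest listed −log10 p was 5.69 and 5.72, against 3.89 and 3.79 in the wild-type lists. With the stricter limit of 5.72 applied to the wild-type libraries, a choice made after the data were seen, 81 and 95 summits were left in the 6 loci. At the background coverage of the C59 libraries, a summit needed a fold enrichment of about 4.26 to be listed. In both wild-type libraries, 66 of the 82 consensus summits had a fold at or above that value. An unlisted summit may still carry binding below it.

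In the wild-type buds, 5 of the genes had far more β-catenin summits than the median gene. The median protein-coding gene had 2 consensus summits within 200 kb. Prrx1 had 25, a number that 0.137% of genes reached, and 5.34 summits per 100 kb of window against a median of 0.466. Alx4 was reached or passed by 0.925% of genes, Twist2 by 1.158%, Twist1 by 1.97% and Prrx2 by 2.58%. Alx1 was closer to the middle, since 19.1% of genes had at least its 5 summits. Neighbouring genes share windows, so these percentages describe a rank and are no test. Per 100 kb the order was Prrx1, Alx4 at 3.42, Twist2 at 3.14, Twist1 at 2.98, Prrx2 at 2.46 and Alx1 at 1.159. The wild-type replicates differed by up to 10 summits at Prrx2 and by 7 at Alx4, so the places of Alx4, Twist2, Twist1 and Prrx2 are not settled by these counts, whereas Prrx1 was above and Alx1 below the other genes in both wild-type libraries.

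**Figure D2:**
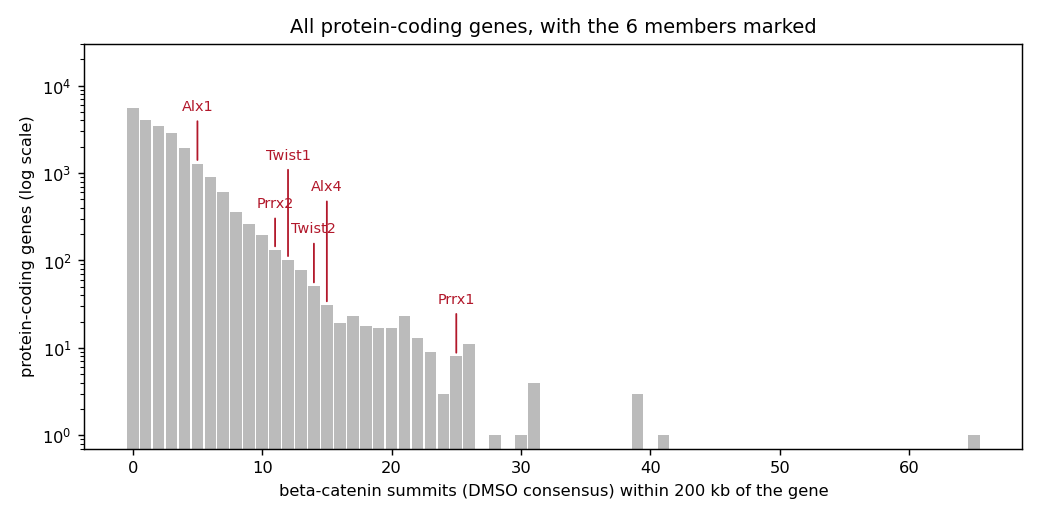
Number of protein-coding genes (y axis, log scale) by their count of wild-type consensus β-catenin summits within 200 kb (x axis). Prrx1 stands at 25 in the far tail, Prrx2, Twist1, Twist2 and Alx4 at 11 to 15, and Alx1 at 5.

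The other genes of the limb mesenchyme list (Msx1, Msx2, Hand2, Gli3, Tbx3, Tbx5, Shox2, Lhx2, Lhx9, Meis1, Meis2, Zeb2, Snai2 and Tcf12) had 1 to 17 wild-type consensus summits, with a median of 11.5. Snai2 had the lowest count and Msx1 the highest, so Prrx1 exceeded each of these 14 genes. At 14 of the 14 genes both wild-type libraries were above both C59 libraries, as at 79.6% of all 21938 protein-coding genes. Of the 14 genes, Hand2 had a summit in the C59 consensus list, with 1.

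Most of the summits were far from promoters. Of the 82, 5 lay within 1 kb of any TSS, a share of 6.10% (95% Wilson interval 2.63 to 13.5%), against 16.3% over the 16193 wild-type consensus summits on chromosomes 1 to 19, X and Y. Intervals cover counting error only. By position, 47 were upstream of the gene, 10 inside it and 25 downstream, and 58 were intergenic. Of the 5 near a TSS, 2 were at Prrx1, 1 at Twist1, 1 at Accs in the Alx4 locus and 1 at Gm37644, a transcript inside Prrx1. A member's own start was flanked more loosely elsewhere. The nearest summit was 1067 bp from the Twist2 start, 1588 bp from the nearest Alx1 start, 1649 bp from Alx4 and 1752 bp from Prrx2. The rule for the loci cuts at 200 kb. The outermost summits just inside it had fold enrichments of 5.33 at 197 kb from Prrx1 and 5.38 at 195 kb from Twist2, and the next ones outside had 7.77 at 204 kb and 9.80 at 200.3 kb.

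**Figure D3:**
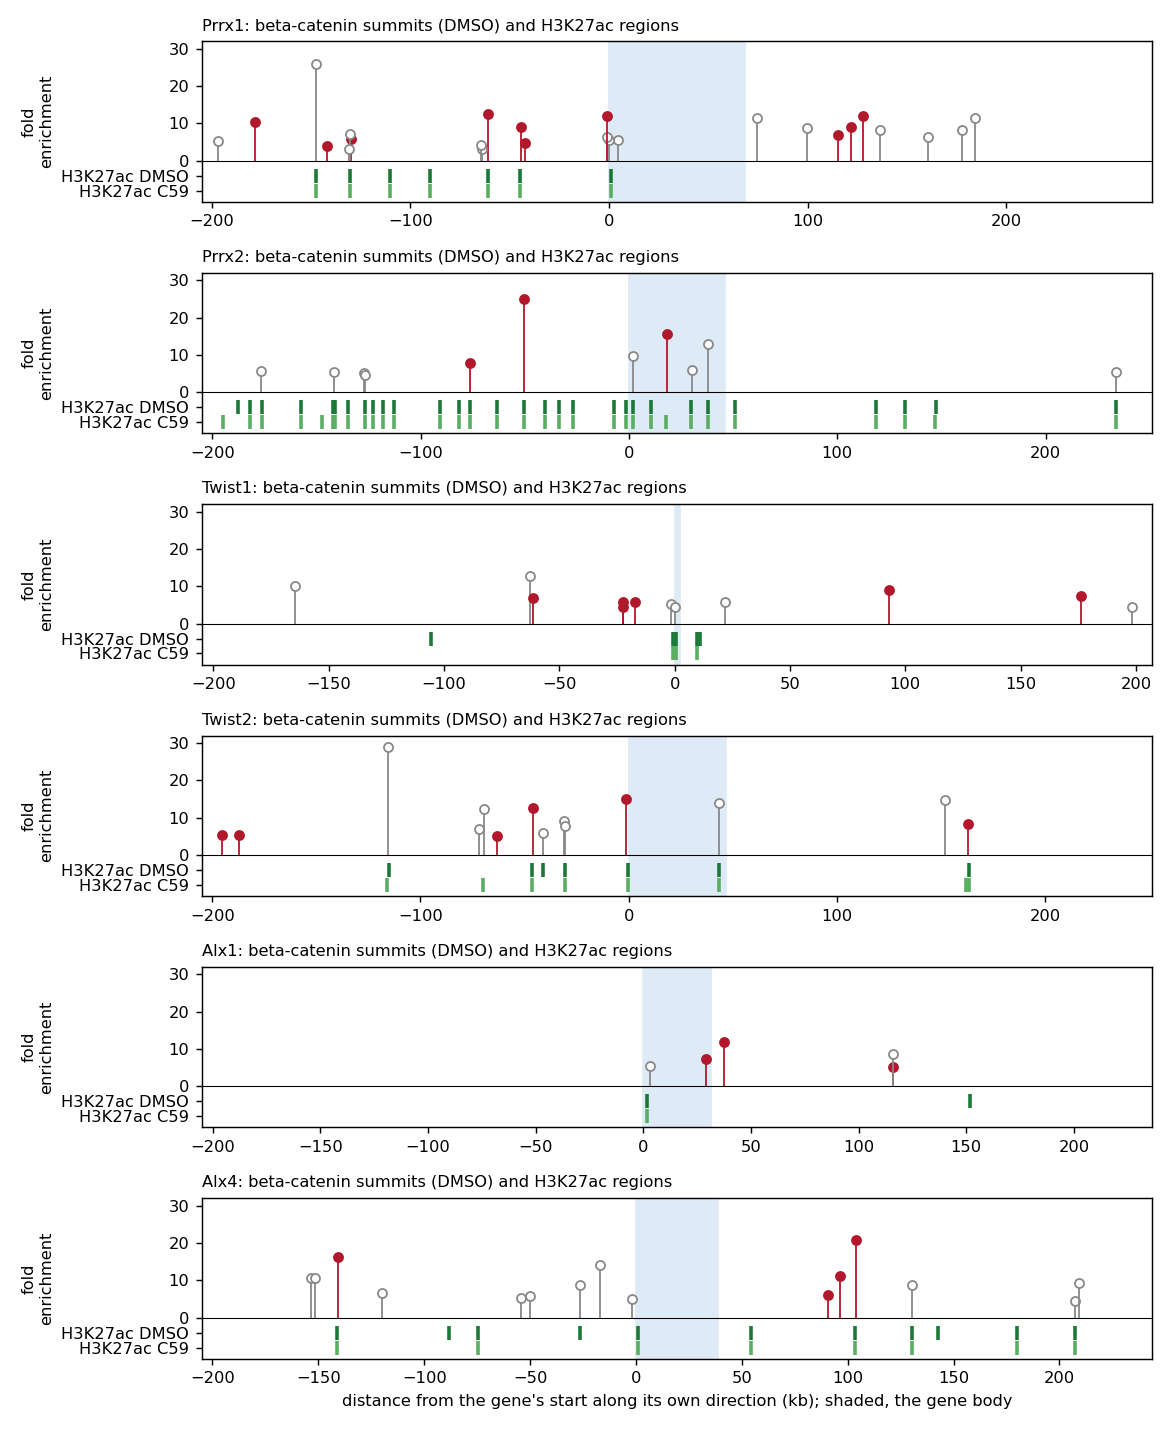
Wild-type β-catenin consensus summits and H3K27ac regions at the 6 genes, by distance from each gene's start in its own direction (x axis, kb). Stems give the fold enrichment of each summit (red and filled with a TCF/LEF core in 200 bp, grey and open without), the shaded band is the gene body, and ticks mark H3K27ac regions listed in both DMSO or both C59 libraries. Prrx1 has summits on both sides of the gene but H3K27ac ticks only on its upstream side and at its start, Prrx2 has the densest ticks, and Alx1 has the fewest summits.

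Prrx1 (ENSMUSG00000026586, chr1:163245119-163313710, minus strand) had 14 summits upstream, 2 in the gene and 9 downstream. Its strongest summit lay 148 kb upstream in intergenic DNA and had a consensus fold enrichment of 26.0, with 21.98 and 25.89 in the 2 wild-type libraries. Only 0.290% of all wild-type consensus summits were as strong. It was inside an H3K27ac peak in both treatments, and its nearest TSS, 57.8 kb away, was that of Gorab. This was also where the only C59 summit of the 6 loci lay. In C59 replicate 1 it had a fold of 6.36, below the 21.98 and 25.89 of the wild-type libraries, and in C59 replicate 2 it was not listed. Of the 82 summits, 1 was thus inside a peak of either C59 library, 1.22% (0.216 to 6.59%), against 2.30% over all wild-type consensus summits. Among the 47 consensus summits of at least its fold, 26 lay inside a C59 peak.

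The next strongest Prrx1 summits were 60.9 kb upstream (fold 12.5), 128 kb downstream of the start (12.04) and 1217 bp before the start (12.04). Each of these 3 held a core. The summit at 1217 bp had folds of 11.7 and 12.1 in the wild-type libraries. Within 1 kb of the start, a summit in the 5′ part of the gene, 121 bp from a TSS, had a fold of 5.63, and a second one at 958 bp had 6.41. The summit at 958 bp and the one at 1217 bp fell in the same peak of wild-type replicate 1. The 9 summits downstream of Prrx1 lay in a stretch with no H3K27ac region listed in both libraries of a treatment, 72.0 to 181 kb from the nearest H3K27ac consensus peak of wild-type controls. Single libraries did list H3K27ac regions beside some of them. A region of DMSO replicate 1 (fold 4.07) lay 242 bp from a summit. Another, of DMSO replicate 2 (3.47) and C59 replicate 1 (3.04), lay 174 bp away, and a region of C59 replicate 1 alone (3.12) lay 1 bp away.

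Prrx2 (ENSMUSG00000039476, chr2:30834972-30881251, plus strand) had most of its β-catenin summits inside H3K27ac peaks. Of its 11 summits, 10 were inside wild-type H3K27ac peaks, a share of 90.9% (62.3 to 98.4%), against 22.1% over all wild-type consensus summits. The other one, 18.2 kb into the gene with a fold of 15.6 and a core, lay inside an H3K27ac peak of the C59 consensus list. The H3K27ac region around it was not particular to C59. It was listed in DMSO replicate 2 at 3.16 and in the C59 libraries at 3.74 and 4.65, but not in DMSO replicate 1. Its strongest summit, 50.2 kb upstream, had a fold of 24.9 (22.1 and 24.4 in the libraries) and a core whose centre was 9 bp from the summit. Inside the gene, summits 37.9 kb and 1.75 kb from the start had folds of 12.9 and 9.65 and no core. The windows of the Prrx2 summits had a median GC content of 67%, against 45.5% over all summits. The Prrx2 locus holds 9 other protein-coding genes, more than any of the other 5 loci, and 49 wild-type H3K27ac consensus summits, a number that 0.310% of protein-coding genes reached.

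Twist1 (ENSMUSG00000035799, chr12:33957671-33959829, plus strand) had no summit as strong as the leading ones of Prrx1, Prrx2, Twist2 and Alx4. Its strongest lay 62.8 kb upstream, with a fold of 12.6 (9.98 and 13.2 in the libraries) and no core. A weaker summit beside it, 61.6 kb upstream with a fold of 6.98, held 2 cores. Of the 12 summits, 6 held a core. A summit 38 bp from the Twist1 TSS, in the untranslated region of its single annotated start, had a fold of 4.52 (4.35 and 3.53) and ranked 10 of 12 in the locus. On the far side, summits 92.9, 176 and 198 kb from the start lay in Hdac9 and had folds of 8.97, 7.37 and 4.40. Those at 92.9 and 176 kb each held a core.

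Twist2 (ENSMUSG00000007805, chr1:91801461-91848028, plus strand) had the strongest summit of the 6 loci. It lay 116 kb upstream with a fold of 28.9 (24.5 and 29.1 in the libraries), which 0.130% of all wild-type consensus summits reached, and had no core. The summit 1067 bp before the gene, in an exon of the transcript Gm29100, had a fold of 14.99 (12.5 and 14.6) and a core with its centre 5 bp from the summit. Summits in an intron of Hdac4 on the far side, 152 and 163 kb from the start, had folds of 14.6 and 8.25, and one 43.4 kb into Twist2 had 13.8. Of the 14 summits, 11 were upstream and 10 were at or above the median of all wild-type summits, 6.76.

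Alx1 (ENSMUSG00000036602, chr10:102998707-103030215, minus strand) had 5 summits, 0 of them upstream. The strongest, 37.5 kb from the start and past the end of the gene, had a fold of 11.8 (11.9 and 9.33) and a core 31 bp from the summit. Inside the gene, summits 29.2 and 3.18 kb from the start had folds of 7.39 and 5.44. Of the 5, 3 held a core and 0 lay inside an H3K27ac peak of either treatment.

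Alx4 (ENSMUSG00000040310, chr2:93642384-93681339, plus strand) had 9 summits upstream, 6 downstream and 0 in the gene. The strongest lay 104 kb from the start in an intron of Ext2, with a fold of 20.8 (17.7 and 20.5) and 3 cores, one of them with its centre 1 bp from the summit. Ext2 summits 90.6 and 96.5 kb from the start held 1 core each, with folds of 6.00 and 11.2. Upstream, the strongest were at 141 kb (fold 16.2, with a core) and at 17.1 kb (fold 14.1, without one). The summit 1649 bp before Alx4 had a fold of 4.98.

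Cores and co-occupied H3K27ac were counted over all 82 summits. A core lay within 200 bp windows of 32 summits, 39.0% (29.2 to 49.8%), against 28.6% (27.9 to 29.3%) over all wild-type consensus summits. The intervals touch each other. The share was 31.7% against 21.03% in windows of 100 bp, 45.1% against 35.7% in windows of 400 bp and 40.8% against 31.3% among summits with a fold of at least 5. With the shorter TCAAAG it was 47.6% (37.1 to 58.2%) against 34.2% (33.5 to 34.9%), intervals that do not overlap. With ATCAAAG alone it was 15.9% against 15.1% over all summits, so the size of the difference depended on the motif. In the lists of wild-type replicates 1 and 2 alone the core share of the loci was 38.2% and 32.4%. The share over all summits of those 2 lists was not taken. Of the 38 cores, 13 read ATCAAAG and 25 TTCAAAG, and 28 had their centre within 50 bp of the summit, with a median of 32 bp. The share was 3 of 5 at Alx1, 6 of 12 at Twist1, 6 of 14 at Twist2, 10 of 25 at Prrx1, 3 of 11 at Prrx2 and 4 of 15 at Alx4. The median fold was 8.01 with a core and 6.84 without, and over all wild-type summits it was 7.62 and 6.43. At Twist2 the order was the other way, with 6.87 over the 6 summits with a core and 10.7 over the 8 without.

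TAATTA, a sequence that homeodomain proteins such as those of the Prrx and Alx families can bind, was found on either strand in 8 of the 82 windows, 9.76% (5.03 to 18.1%), against 14.8% over all. CAGCTG, an E-box that basic helix-loop-helix proteins can bind, was in 10, 12.2% (6.76 to 21.01%), against 18.8%. Both intervals reach past the share over all summits. In the RefSeq promoter table, which reaches from before to just past each start, 4 of the 6 genes had a promoter, and 0 of these 4 held a core, against 8.65% of all promoters in the table of the same length.

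Of the 82 summits, 22 were inside a wild-type H3K27ac consensus peak, 26.8% (18.4 to 37.3%), against 22.1% over all wild-type summits, and 24 were inside a C59 one, 29.3% (20.5 to 39.9%), against 23.0%. The loci differed among themselves. Besides the 10 of 11 at Prrx2, the counts in wild-type controls were 4 of 25 at Prrx1, 1 of 12 at Twist1, 5 of 14 at Twist2, 0 of 5 at Alx1 and 2 of 15 at Alx4. Within 1 kb of a peak stood 33 of the 82, 40.2%, against 34.1% over all.

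H3K27ac summits were still listed at all 6 loci after C59. The wild-type consensus list had 103 summits in the loci and the C59 list 85, and the libraries had 108 and 112 against 107 and 96. At Twist1, 10 and 9 summits were listed in the DMSO libraries and 6 and 5 after C59. At Twist2 there were 15 and 14 against 12 and 13. These were the genes with both wild-type libraries above both C59 libraries, 2 of 6, and 15.7% of protein-coding genes were separated in this way. Prrx2 had 48 and 49 against 51 and 50, the opposite order, found at 5.11% of protein-coding genes. Prrx1 had 16 and 16 against 17 and 13, Alx1 3 and 4 against 3 and 2, and Alx4 16 and 20 against 18 and 13, so the treatments overlapped. The permutation test of the summed counts gave an exact two-sided p = 0.333, again the smallest that is possible. Counted as peak regions, so that several summits in a region count once, Twist1 still had 5 and 6 against 4 and 4, whereas Twist2 had 10 and 8 against 8 and 9 and the treatments overlapped. Part of the difference at Twist1 lay in the summits per region. The region 9.55 kb past the start held 5 and 3 summits in the DMSO libraries and 2 and 2 after C59.

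The H3K27ac fold enrichment was compared in limma over 17475 regions that were listed in all 4 libraries, with Benjamini-Hochberg adjustment. In this test 0 regions passed an adjusted p of 0.05, which is 0% of those tested, and 1777 had an unadjusted p below 0.05. Of the 95 H3K27ac regions in the 6 loci, 52 were listed in all 4 libraries, and their lowest adjusted p was 0.402. Of the 52, 3 were lower after C59 at an unadjusted p below 0.05 and 3 were higher, 5.77% each. Over all regions these shares were 4.41% and 5.76%, so that the count of the members was near the background. Their median log2 fold change was 0.01, against 0.03 over all regions. The 27 regions of the loci within 1 kb of a wild-type β-catenin summit had a median of 0.08 and the other 25 had -0.01. Over all tested regions the medians with and without such a summit were 0.05 and 0.02, in the same order. Over all regions, 95% of the values lay between -0.44 and 0.46.

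**Figure D4:**
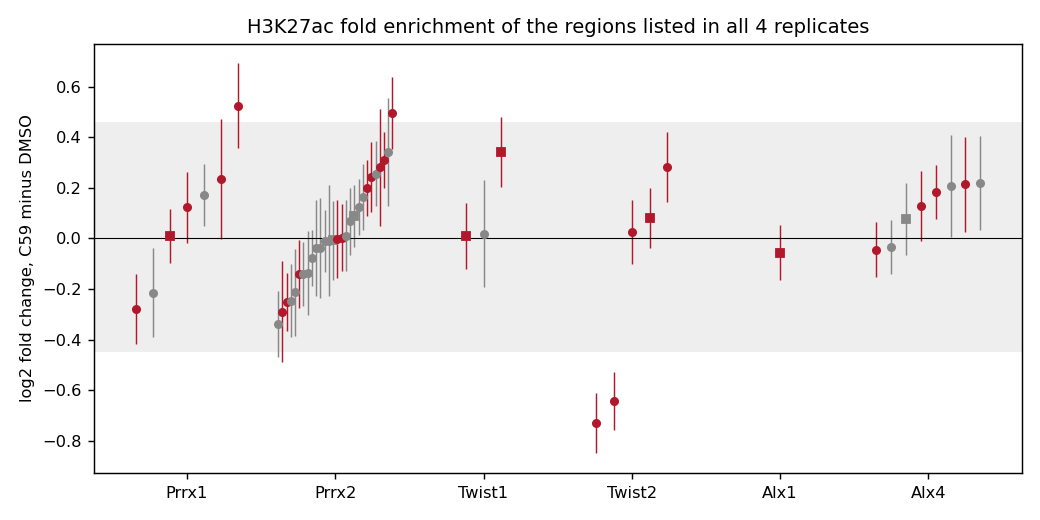
Log2 fold change in H3K27ac fold enrichment, C59 minus DMSO (y axis), of the 52 regions listed in all 4 libraries, by gene (x axis), with standard errors from limma. Red marks regions within 1 kb of a wild-type β-catenin summit, squares mark regions within 1 kb of the gene's own start, and the grey band spans the middle 95% of all 17475 regions. The 2 lowest points, at -0.73 and -0.64, are both at Twist2.

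The promoters of the 6 genes kept their H3K27ac regions in every library. At the Prrx1 start, the fold enrichment was 4.60 and 4.59 in the DMSO libraries and 4.75 and 4.34 after C59, a log2 fold change of 0.01 ± 0.11 (SE, n = 2 per group). At the Prrx2 start 10.46 kb into the gene, it was 10.1 and 11.8 against 12.3 and 9.16, a log2 fold change of -0.01 ± 0.16. The treatments overlapped at both starts. At Twist2 it was 6.87 and 8.02 against 7.82 and 7.58, a log2 fold change of 0.08 ± 0.12. At Alx4 it was 7.18 and 6.31 against 6.68 and 7.28, a log2 fold change of 0.08 ± 0.14. These also overlapped. The regions at the upstream start of Prrx2 and just before Twist1 had log2 fold changes of 0.09 ± 0.12 and 0.01 ± 0.13. At Alx1, 7.34 and 7.47 in wild-type controls stood above 7.04 and 6.94 after C59 by a small margin, a log2 fold change of -0.06 ± 0.11. At Twist1, the region over the gene had 6.87 and 6.50 in the DMSO libraries and 7.82 and 8.84 after C59. Both C59 libraries were higher, with a log2 fold change of 0.34 ± 0.14 and an unadjusted p of 0.0505 in limma (adjusted p = 0.490), so that it did not pass the test. The deposited fold is taken over the local expected coverage. The rise was lost when coverage was set over the library-wide background instead, where the log2 fold change was 0.0044 (unadjusted p = 0.976). The same setting turned the Twist2 start to -0.41 ± 0.14, with an unadjusted p of 0.0224 and an adjusted p of 0.235 in limma, the region just before Twist1 to -0.30 ± 0.16, the Alx4 start to -0.11 ± 0.14 and the Alx1 start to 0.20.

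Beyond the promoters, Twist2 held the regions with the lowest values. At chr1:91964707-91965199, in an intron of Hdac4, the fold was 4.68 and 4.88 in the DMSO libraries and 3.10 and 2.58 after C59, a log2 fold change of -0.73 ± 0.12 with an adjusted p of 0.402 in limma. At chr1:91754858-91755221, 46.4 kb upstream of the gene, it was 6.61 and 6.33 against 4.33 and 3.83, a log2 fold change of -0.64 ± 0.11 with an adjusted p of 0.402. Neither site passed the test, and since both were picked for their low values, the order of their libraries follows from that choice. They lay 66 and 96 bp from wild-type β-catenin summits with folds of 8.25 and 12.5, and each of those summits held a core. Such nearness was common in these loci. All 5 tested regions at Twist2 were within 1 kb of a summit, as were 21 of 33 (63.6%) over 1 kb from a TSS in the 6 loci.

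Other H3K27ac regions were listed in both libraries of only one treatment. Of the 95 regions, 5 were listed in both wild-type and neither C59 library, 5.26% (2.269 to 11.7%), against 3.03% over all 34047 regions. The reverse held for 2, 2.11% (0.579 to 7.35%), against 2.15%. Both shares have intervals that hold the share over all regions. Of the 5, 2 were at Twist2. The region chr1:91686017-91686497 had folds of 4.55 and 3.34 in the DMSO libraries and ended 102 bp from the strongest β-catenin summit of the loci. A neighbouring region on the other side of that summit, 352 bp away, was listed in wild-type replicate 1 at 5.27 and in both C59 libraries at 3.36 and 3.52. The region chr1:91760229-91760798 had 4.42 and 3.96 and held a β-catenin summit with a fold of 5.91. The other 3 were chr12:33852009-33852279 at Twist1, with 3.80 and 3.86, and chr2:93553922-93554310 and chr2:93784995-93785454 at Alx4, with 4.25 and 3.55 and with 3.87 and 3.42. These 3 lay 12.1 to 42.6 kb from the nearest wild-type β-catenin summit. The 2 regions of the reverse kind were chr1:91963380-91963709 in Hdac4, with 2.76 and 3.02 after C59, and chr2:30981594-30981816 at the starts of BC005624 and Usp20, with 3.12 and 4.53.

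**Figure D5:**
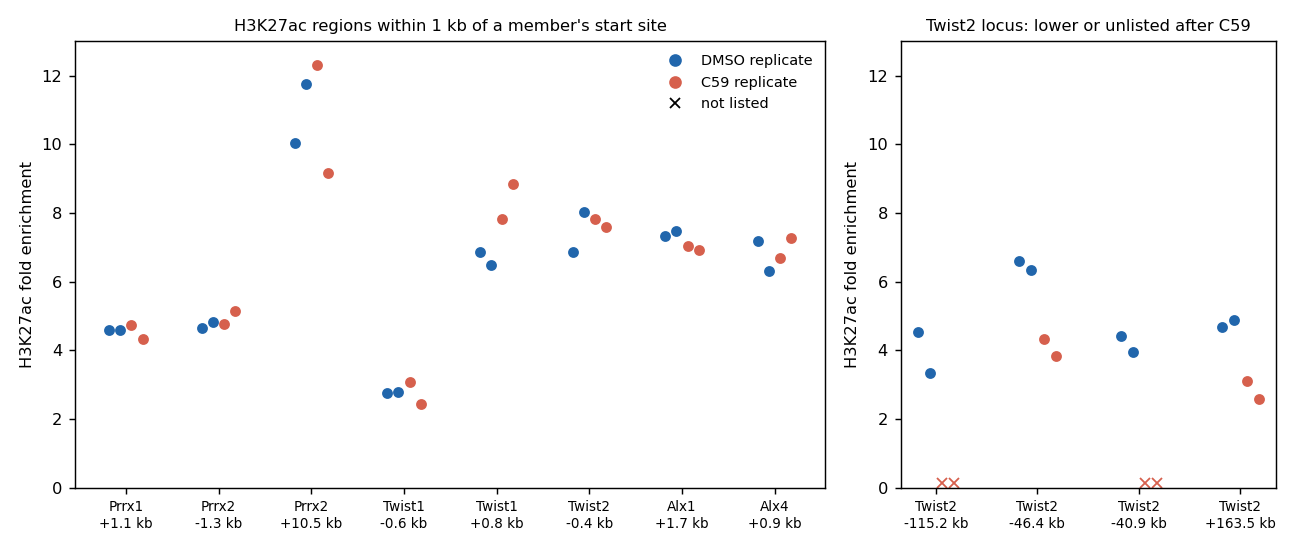
H3K27ac fold enrichment (y axis) in each library at the regions within 1 kb of a member's start (left) and at the Twist2 regions that were lower at an unadjusted p below 0.05 or unlisted after C59 (right), with distances from the gene's start in kb. Blue points are DMSO and orange points C59 libraries, and crosses near 0 mark libraries in which the region was not listed. The libraries of both treatments interleave at most starts. The Twist2 sites were chosen for low or missing C59 values, so the order of their libraries follows from that choice.

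The share of regions near β-catenin was also taken over the whole genome. Of the 1030 regions listed in both wild-type and neither C59 library, 27.5% (24.8 to 30.3%) were within 1 kb of a wild-type β-catenin summit, against 29.6% (26.4 to 33.1%) of the 732 of the reverse kind and 25.1% of the 17475 listed in all 4 libraries. Among regions over 1 kb from a TSS the order differed, with 31.9% (28.7 to 35.3%) of those listed in both wild-type and neither C59 library, 33.7% (30.03 to 37.5%) of the reverse kind and 42.5% (41.2 to 43.9%) of those listed in all 4. The latter were also stronger, with a median mean fold of 4.76 against 3.60 and 3.52. Regions with an unadjusted p below 0.05 in limma were counted at any distance from a TSS. Of the lower ones 18.3% (15.7 to 21.2%) and of the higher ones 31.7% (28.9 to 34.6%) were within 1 kb of a β-catenin summit. These shares were not taken for regions over 1 kb from a TSS alone.

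The sites with higher H3K27ac after C59 at an unadjusted p below 0.05 were at Prrx1 and Prrx2. At the strongest Prrx1 β-catenin summit, chr1:163460954-163462010, the fold was 4.34 and 3.35 in the DMSO libraries and 5.75 and 5.03 after C59, a log2 fold change of 0.52 ± 0.17 with an adjusted p of 0.437 in limma. It was 0.31 without DMSO replicate 2 and 0.73 without DMSO replicate 1. In an intron of Prrx2, at chr2:30836427-30837274, it was 2.25 and 2.89 against 3.57 and 3.50, a log2 fold change of 0.50 ± 0.14 with an adjusted p of 0.427. At chr2:30707570-30708677, 127 kb upstream of Prrx2, it was 8.71 and 8.49 against 10.96 and 9.99, a log2 fold change of 0.31 ± 0.11 with an adjusted p of 0.454. None of the 3 passed the test, and since they were picked by p and direction, the order of their libraries follows from that choice. All 3 held a wild-type β-catenin summit. By a looser measure, 21 of 33 (63.6%) tested regions of the 6 loci over 1 kb from a TSS were within 1 kb of such a summit. The share of them that held a summit was not taken. The third region that was lower after C59 at an unadjusted p below 0.05 was chr2:30677078-30677660 at Gm14486 in the Prrx2 locus, with 4.88 and 5.17 against 4.39 and 3.47, a log2 fold change of -0.34 ± 0.13 with an adjusted p of 0.479. It was -0.21 without C59 replicate 2.

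The strongest H3K27ac region over 1 kb from any TSS was listed in all 4 libraries at Alx4, Prrx2, Prrx1 and Twist2. Regions were ranked by their mean fold over the libraries that listed them, so libraries without the region did not count. At Alx4, chr2:93567513-93568242, 74.5 kb upstream of the gene, had 12.6 and 12.9 in the DMSO libraries and 12.6 and 11.9 after C59. At Prrx2, chr2:30693324-30694047 held a β-catenin summit and had 11.7 and 11.3 against 13.5 and 12.5, a log2 fold change of 0.20 ± 0.11 that was 0.08 with coverage over the library-wide background. At Prrx1, chr1:163423536-163424337 had 6.14 and 4.58 against 4.60 and 4.38, a log2 fold change of -0.22 ± 0.18. In these 3 regions the change was within about 2 standard errors, and the wild-type library of 6.14 stood apart from the other 3 at Prrx1. At Twist1, the strongest distal region lay 176 kb from the start in an intron of Hdac9 and was listed in DMSO replicate 2 alone, at 4.12. The next one, 9.55 kb past the start, was listed in all 4 libraries with a mean fold of 3.86. It had 4.65 and 3.16 against 3.83 and 3.80, a log2 fold change of 0.02 ± 0.21 that was -0.43 with coverage over the library-wide background. At Alx1, chr10:102878124-102878482, 152 kb downstream of the start, had 4.61 and 5.15 in the DMSO libraries and 2.88 in C59 replicate 1, and was not listed in C59 replicate 2. It was therefore not tested. At Twist2 the strongest distal region was the one 46.4 kb upstream that is described above.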

How the data were processed

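β-Catenin and H3K27ac peak lists of forelimb buds were used, 8 of single replicates and 4 consensus lists. The 4 inputs were not analysed here. The authors mapped reads to mm10 with Bowtie2 2.4.5 and called summits with MACS2 2.2.7.1 without input, and for consensus lists removed duplicates (Picard 2.27.4), equalised both replicates and pooled them. Each deposited row gives the fold enrichment, a ratio over expected coverage, −log10 of the p-value and, as a deposited score, −log10 of the q-value. Fold and p were solved for coverage, within 0.01 of the deposited −log10 p, and the lowest expected coverage times the genome size gave the depth. Unlisted sites may still carry signal. Blacklisted regions were not removed.

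Summits within 200 kb of a gene body in GENCODE M21 were counted per library and compared by exact permutation. H3K27ac replicate lists were merged into regions, and log2 of the fold at the strongest summit, centred on each library's median (the shift between treatments was -0.03), was compared with limma 3.58.1 (R 4.3.3). Shares carry 95% Wilson intervals. Python 3.11.15, pandas 2.3.3, scipy 1.17.1 and pysam 0.24.0 were used. The solution for coverage, the core search, the peak overlap and the limma fit were tested on simulated or constructed data. 1 gene of the limb mesenchyme list is not reported here. The genes, the gene lists and the tests were chosen with earlier results of these data known. Named were, per gene, summits within 1 kb of its start, the 3 strongest, the strongest with a core, those listed after C59, H3K27ac regions at the start, the strongest distal one, and regions called by limma or listed in both libraries of 1 treatment only. The summits next to other H3K27ac regions, the regions at an unadjusted p below 0.05 and further summits of each gene were named after their values were seen. Groups came from the sample labels, and replicates are separate pools of buds.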

Additional observations from a re-analysis of the deposited data

How the results depend on the processing

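The wild-type β-catenin count of 82 in the 6 loci was 54 within 100 kb and 126 within 500 kb, and 89 to 105 with one replicate left out. The C59 count of 0 stayed 0 under each window and limit tried, and was 0 to 1 with one replicate left out. A limit on −log10 p equal to that of the C59 consensus list, chosen after the data were seen, left 79 wild-type summits. The H3K27ac counts of 103 and 85 were 66 and 53 within 100 kb, 182 and 165 within 500 kb, and 37 and 36 at a fold of at least 5. Counted as peak regions they were 61 and 58, and with one replicate left out 108 to 112 and 96 to 107. The core share of 39.0% was 15.9% with ATCAAAG alone. The share inside H3K27ac peaks was 40.2% when a distance of 1 kb was allowed, and the share near a TSS was 14.6% at a limit of 2.5 kb, against 22.1% over all wild-type summits. The other alternatives kept these shares within the intervals given.

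In limma, 0 regions of the 6 loci passed an adjusted p of 0.05 under any of the 10 alternatives. Over all regions the count was 0 except with a trend on the mean value, which called 3. With the replicate number as a block, 0 regions were called and 1810 had an unadjusted p below 0.05. Same-numbered libraries did not deviate together (correlation over regions 0.0102), so the numbers were not treated as pairs. Without centring, 871 regions were lower and 762 higher at an unadjusted p below 0.05, against 770 and 1007 with it. With coverage over the library-wide background, 17 of the 52 regions of the loci moved by more than 1 standard error and 12 changed sign, among them the starts of Twist2, Alx4 and Alx1, and the cause was not tested. With one library left out, 5 to 13 changed sign. The Twist2 distal regions kept log2 fold changes of -0.99 to -0.64 in the Hdac4 intron and of -0.83 to -0.59 upstream, with adjusted p from 0.145 to 0.607.

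With 2 libraries per group the exact test cannot go below 0.333, and only listed regions carry a value. A region has to be listed in all 4 libraries to be tested, which leaves out those that fell below the calling limit after C59. Without input libraries, local background cannot be told apart from signal.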
